A study of Drosophila melanogaster with 10 samples.

Results

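Glutathione S-transferases (Gst) are the enzymes of the fly that join glutathione to reactive compounds. The family was taken as every gene whose FlyBase symbol starts with Gst followed by a capital letter, a rule that used no measured value, and it held 35 of the 17735 genes in the count tables. By class these were 11 delta (GstD), 14 epsilon (GstE), 3 omega (GstO), 1 sigma (GstS), 4 theta (GstT) and 2 zeta (GstZ) genes. Of these, 31 passed the filter on low counts and were tested among 10585 genes.

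RNA from whole larvae of Drosophila melanogaster in the third instar, strain y1w1118, was sequenced in 10 libraries, 2 for each of 5 genotypes, to compare larvae with and without the parts of the architectural proteins CTCF, Pita and Su(Hw) that bind CP190. These are zinc-finger proteins that bring CP190 to insulators and promoters. Wild type carried dCTCFwt, and CTCF larvae carried dCTCFdeltaCP. CTCF Su(Hw) larvae carried dCTCFdeltaCP with SuHwdelta114, and CTCF Pita larvae carried dCTCFdeltaCP with PitadeltaCP1. The triple mutant carried dCTCFdeltaCP, SuHwdelta114 and PitadeltaCP1. All 4 mutant genotypes thus shared the CTCF mutation, and neither the Su(Hw) nor the Pita mutation was analysed here beside wild-type CTCF. The sources used here do not say whether the mutant proteins were made from the native loci or from transgenes, nor the sex of the larvae, nor whether the libraries of a genotype came from separate cultures, so p-values measure the spread between libraries, which may be technical.

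Glutathione S-transferases protect cells by making electrophiles such as oxidised lipids, plant toxins and insecticides soluble for export. The delta and epsilon classes are found in insects and other arthropods, lie in tandem clusters, and are known for their part in insecticide resistance. In larvae the midgut, the fat body and the Malpighian tubules are the main tissues of detoxification, and the CncC and Keap1 pair, the fly counterpart of mammalian Nrf2 and Keap1, is a known regulator of these genes.

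Reads assigned to genes numbered from 5670793 to 8220126 per library, and the family took 0.145% to 0.201% of them. Levels are given as CPM, the usual read count scaled to library size, here after TMM factors, and a single read stood for 0.0927 to 0.289 CPM. Levels of different genes are compared only as CPM per kilobase of exon. The share of mitochondrial transcripts was 34.6% and 24.2% in CTCF larvae and 8.67% to 18.7% in the other libraries. Counts over whole genes do not show the deleted protein parts. The CTCF gene stood at 14.1 ± 0.37 CPM (SD, n = 2) in wild type, 6.83 ± 1.80 in CTCF larvae, 11.1 ± 0.079 in CTCF Su(Hw) larvae, 21.0 ± 0.11 in CTCF Pita larvae and 22.3 ± 5.98 in the triple mutant, so the genotypes labelled with the same CTCF mutation were unequal in it. The su(Hw) gene stood at 488 ± 11.7 CPM (SD, n = 2) in CTCF Su(Hw) larvae and 479 ± 131 CPM (SD, n = 2) in the triple mutant, against group means of 21.2 to 25.7 CPM elsewhere. The pita gene stood at 160 ± 11.6 CPM (SD, n = 2) in CTCF Pita larvae and 192 ± 36.1 CPM (SD, n = 2) in the triple mutant, against group means of 18.8 to 27.8 CPM elsewhere. The libraries of CTCF Su(Hw) larvae differed little beyond counting error, with a chi-square of 1.785 per degree of freedom against 14.346 to 41.409 in the other groups, so results with this genotype are also given below with both libraries summed.

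Per length of exon, GstD1 was the most abundant member. This delta-class enzyme, a known target of the CncC pathway that can break down DDT, stood at 975 and 774 CPM per kilobase in wild type, 1136 and 1047 in CTCF larvae, 486 and 482 in CTCF Su(Hw) larvae, 398 and 330 in CTCF Pita larvae and 414 and 501 in the triple mutant. It made up 41.4% to 44.3% of the family's summed level per length in wild type and CTCF larvae, and 29.7% to 32.9% in the other 3 genotypes. Next in order, as the mean of the 5 group means per kilobase, came GstE12 at 198 CPM, GstO3 at 121 CPM, GstE9 at 105 CPM and GstE3 at 77.4 CPM. The sigma gene GstS1 at 70.8 CPM per kilobase and the theta gene GstT4 at 70.5 CPM per kilobase followed, and their ranges over libraries overlapped. Of the zeta genes GstZ2 was the higher, at 14.8 CPM per kilobase. The lowest of the tested members was GstE2, at 0.88 CPM per kilobase. Groups of neighbours in this order, such as GstE3, GstS1 and GstT4, overlapped in their ranges over the 10 libraries.

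The 4 members that did not pass the filter were GstD5 with 45 reads over the 10 libraries, GstD11 with 5, GstE4 with 8 and GstE14 with 45. GstE14, also called noppera-bo, acts in ecdysteroid synthesis in the prothoracic gland and belongs to the family by symbol. It had 5 and 9 reads in wild type, 6 and 0 in CTCF larvae, 9 and 11 in CTCF Su(Hw) larvae, 1 and 1 in CTCF Pita larvae and 2 and 1 in the triple mutant. At this depth no difference between genotypes was tested for these 4 genes.

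**Figure D1:**
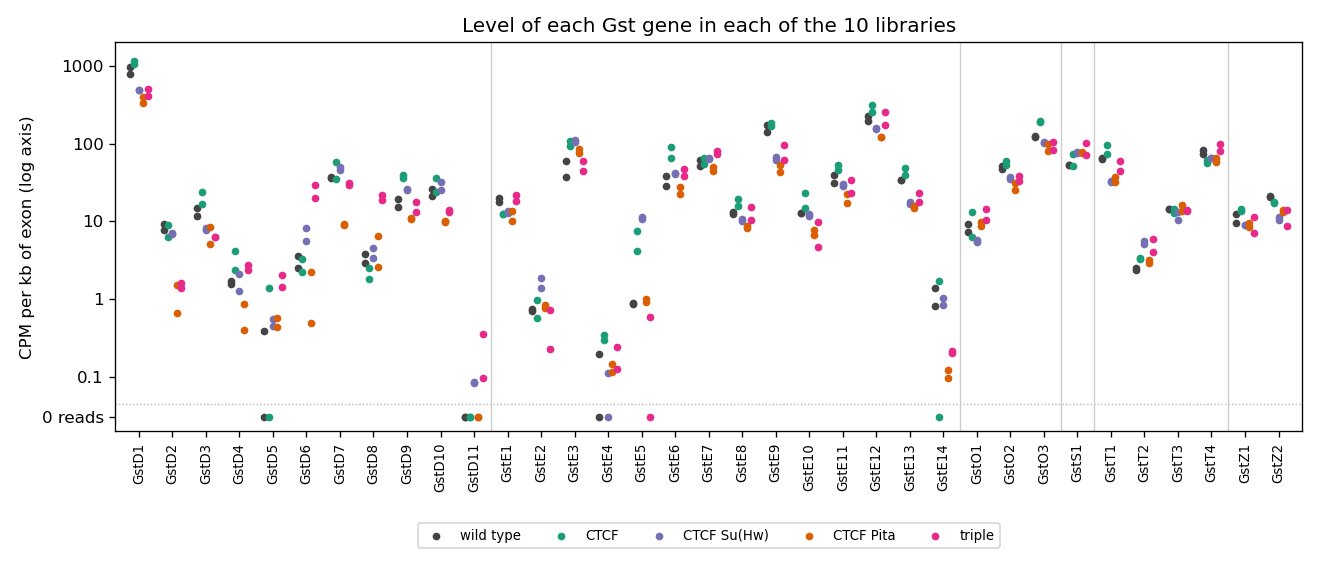
Level of each of the 35 Gst genes in each of the 10 libraries, in CPM per kilobase of exon on a log axis, with genes ordered by class and 1 point for each library, and libraries with 0 reads drawn on the bottom line. GstD1 stood highest, from 330 to 1136 CPM per kilobase, and GstD2, GstD6, GstD7, GstD8 and GstE5 were the members whose genotypes lay farthest apart among those with a mean over 3 CPM per kilobase.

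Summed over the class, delta genes stood at 913 and 731 CPM in wild type, 1061 and 1016 in CTCF larvae, 514 and 507 in CTCF Su(Hw) larvae, 372 and 313 in CTCF Pita larvae and 436 and 519 in the triple mutant. The libraries of wild type and of CTCF larvae lay above those of the other 3 genotypes. GstD1 made up most of this sum, with a group mean of 737 of 822 CPM in wild type and 408 of 511 CPM in CTCF Su(Hw) larvae. The median log2 change of the 9 tested delta genes in CTCF Su(Hw) larvae against wild type was 0.21, while the sum was lower. Epsilon genes stood at 697 and 590 CPM in wild type, 922 and 815 in CTCF larvae, 521 and 526 in CTCF Su(Hw) larvae, 404 and 373 in CTCF Pita larvae and 488 and 666 in the triple mutant. Here the triple mutant overlapped wild type and CTCF Su(Hw) larvae. Omega genes stood at 200.1 and 206 CPM in wild type, 275 and 276 in CTCF larvae, 159 and 160 in CTCF Su(Hw) larvae, 150.1 and 124 in CTCF Pita larvae and 140 and 171 in the triple mutant, so the omega sum, too, was highest in CTCF larvae. The sigma gene and the zeta genes were ordered otherwise. GstS1 was lowest in wild type and in a library of CTCF larvae, while the zeta sum was highest in wild type, at 60.8 and 57.2 CPM, and lay between 30.3 and 40.4 CPM in the 3 genotypes with a mutation beyond CTCF (Su(Hw), Pita or both). Theta genes stood at 186 and 178 CPM in wild type, 194 and 162 in CTCF larvae, 131 and 135 in CTCF Su(Hw) larvae, 140 and 123 in CTCF Pita larvae and 189 and 178 in the triple mutant, so CTCF larvae reached above and below wild type. These sums are a description without a test, and in whole larvae fewer cells of a type and less RNA per cell cannot be told apart.

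**Figure D2:**
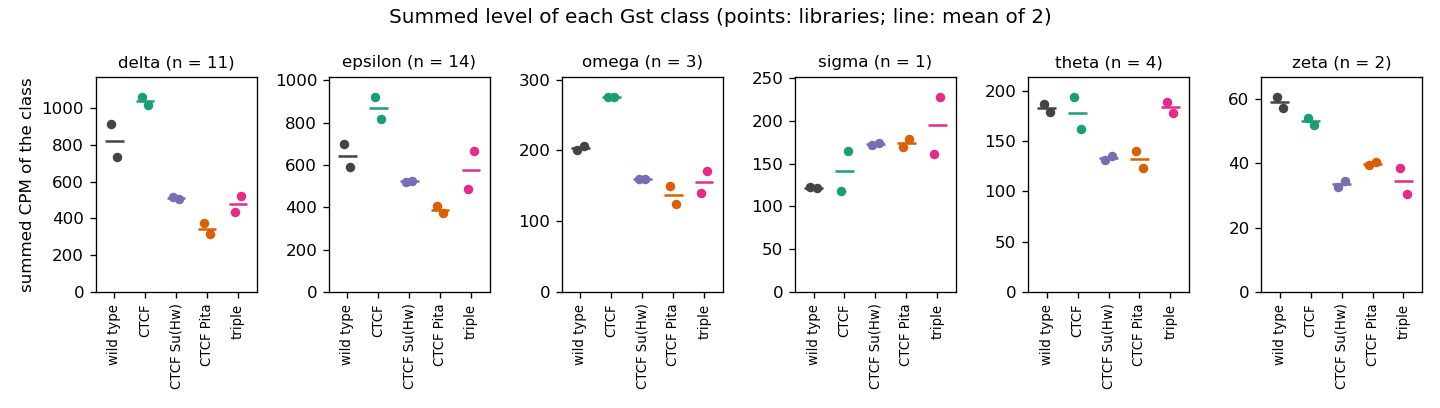
Summed CPM of each Gst class by genotype, with 1 point for each library and a line at the mean of 2, each panel on its own axis from 0. The delta, epsilon and omega sums were highest in CTCF larvae and, on the group means, lowest in CTCF Pita larvae.

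Marker genes of other tissues moved between the same genotypes, and their part in the results below was not tested. Summed midgut markers (digestive proteases, amylase and others; 13 of 14 tested, gammaTry at 0 in both libraries of the CTCF Su(Hw) and CTCF Pita mutants) stood at 8041 to 13479 CPM in wild type, 24196 to 34519 in CTCF larvae, 8123 to 8194 in CTCF Su(Hw) larvae, 5272 to 8725 in CTCF Pita larvae and 15188 to 28623 in the triple mutant. Malpighian tubule markers (8 of 8 tested) stood at 515 to 556 CPM in wild type, 427 to 464 in CTCF larvae, 360.2 to 369 in CTCF Su(Hw) larvae, 213 to 219 in CTCF Pita larvae and 271 to 274 in the triple mutant. Most of this sum was Eglp4 and Uro, with means of 314 and 119 CPM in wild type and 95.1 and 37.4 in CTCF Pita larvae. Drip (38.7 and 38.9 CPM) and SecCl (7.76 and 8.00 CPM) were not lower there, and the other tubule markers had lower means. Fat body markers (10 of 10 tested), among them larval serum proteins and lipid carriers, stood at 54946 to 61797 CPM in wild type, 75096 to 82645 in CTCF larvae, 56968 to 58686 in CTCF Su(Hw) larvae, 44478 to 47264 in CTCF Pita larvae and 36680 to 42476 in the triple mutant. Salivary glue genes (7 of 7 tested), which switch on late in the third instar, stood at 332 and 17.9 CPM in wild type, 1470 and 681 in CTCF larvae, 958 and 1009 in CTCF Su(Hw) larvae, 3512 and 2584 in CTCF Pita larvae and 634 and 2852 in the triple mutant. The Gst sums and these markers were thus both unequal between genotypes. On group means the midgut and fat body sums were highest, like the delta, epsilon and omega sums, in CTCF larvae. Most of the fat body sum was Lsp1beta and Lsp1gamma, at 19280 and 28129 CPM in wild type. As the mean log2 level over the fat body markers, CTCF larvae stood at 10.115 and 10.196, and CTCF Su(Hw) larvae at 10.158 and 10.227. The order by sums was thus that of a few genes.

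Each mutant was compared with wild type by edgeR's quasi-likelihood test, with p-values adjusted by Benjamini-Hochberg over all 10585 genes, and a gene is said to be called at an adjusted p under 0.05. With library totals in place of TMM factors the median of all genes tested moved by -0.58 in CTCF larvae, 0.48 in CTCF Su(Hw) larvae, 0.49 in CTCF Pita larvae and 0.14 in the triple mutant (log2), so the place of the family is given relative to that median. Library totals called 1314, 3637, 3979 and 1615 of all 10585 genes in these comparisons, in the same order. The 4 comparisons share the wild-type libraries and are not independent of each other.

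In CTCF larvae, 3 genes of the epsilon cluster and GstD9 rose, and no other member was called. Members called numbered 4 of 31, all higher, against 3.37% of all genes tested (2.2% higher and 1.17% lower), and with library totals 1 member was called higher and 2 lower. The members' median log2 change was 0.35, against -0.02 over all genes tested, and 24 of 31 members lay above the latter. Relative to the median of all genes tested, the members' median stayed positive under each of 17 alternative settings, from 0.19 to 0.42. Changes of scaling cancel in this difference, so RLE factors and library totals could hardly move it. In some settings the library left out was in neither group compared. The settings are thus not separate checks, here or in the comparisons below.

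GstE5, an epsilon gene near the detection limit in wild type, stood at 0.65 and 0.63 CPM there, 5.50 and 3.03 in CTCF larvae, 7.79 and 8.43 in CTCF Su(Hw) larvae, 0.74 and 0.67 in CTCF Pita larvae and 0.43 and 0 in the triple mutant. Its CTCF and CTCF Su(Hw) libraries lay apart from all others, and the wild-type values rest on 4 reads in each library. In CTCF larvae it rose by 2.69 ± 0.55 (log2, SE; adjusted p = 0.0252). GstE6 stood at 28.6 and 21.5 CPM in wild type, 67.4 and 49.0 in CTCF larvae, 31.8 and 30.3 in CTCF Su(Hw) larvae, 20.5 and 17.0 in CTCF Pita larvae and 29.1 and 35.8 in the triple mutant. Its CTCF libraries stood above those of each other genotype, and the change against wild type was 1.22 ± 0.21 (adjusted p = 0.0110). GstD9 stood at 15.2 and 11.9 CPM in wild type, 30.7 and 28.1 in CTCF larvae, 20.4 and 19.7 in CTCF Su(Hw) larvae, 8.55 and 8.39 in CTCF Pita larvae and 10.4 and 13.9 in the triple mutant. The CTCF libraries were the highest, at a change of 1.12 ± 0.19 (adjusted p = 0.0103). GstE3 stood at 44.8 and 27.7 CPM in wild type, 69.7 and 80.4 in CTCF larvae, 79.6 and 83.2 in CTCF Su(Hw) larvae, 63.8 and 56.3 in CTCF Pita larvae and 33.7 and 44.8 in the triple mutant. The wild-type libraries of GstE3 differed from each other more than those of the CTCF Su(Hw) or CTCF Pita larvae, and the change in CTCF larvae was 1.05 ± 0.22 (adjusted p = 0.0290).

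These 4 calls did not withstand the loss of a library: leaving out CTCF library 1 or wild-type library 2 left 0 members called by edgeR (10 members had an unadjusted p under 0.05 with all libraries, and DESeq2 called 5), and leaving out either CTCF Su(Hw) library left 2. GstE5 was not called without wild-type library 1 (adjusted p = 0.104) and GstE3 not without CTCF library 2 (adjusted p = 0.1497), and with both CTCF Su(Hw) libraries summed 2 members were called. With the mean glue level as a covariate none of the 4 was called, and their changes ran from 0.57 to 2.33. Over all genes tested 55 were then called, against 357 without the covariate. Glue level differed between genotypes, so the covariate and genotype overlap. Leaving out any of the libraries named here lowered the number of all genes called as well. The members per length highest in their classes were not called here: the log2 change of GstD1 was 0.32 (adjusted p = 0.387), of GstE12 0.42 (0.280), of GstO3 0.62 (0.0677), of GstS1 0.22 (0.595), of GstT4 -0.43 (0.182) and of GstZ2 -0.28 (0.464).

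In CTCF Su(Hw) larvae the family was divided. GstE5, GstE3, GstT2 and GstD9 rose, while GstE9, GstT1, GstE13, GstZ2, GstD1 and GstO2 fell. Members called numbered 10 of 31, or 32.3%, close to the 33.3% of all genes tested (15.8% higher and 17.4% lower), so the share called is near the background. With library totals 10 members were called higher and 1 lower, that scaling moving the median of all genes by 0.48. The members' median log2 change was -0.26 against -0.01 over all genes tested, and relative to that median it stayed between -0.36 and -0.11 under the 17 alternatives.

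GstE9, the most abundant member of the epsilon cluster per length, stood at 138 and 112 CPM in wild type, 146 and 132 in CTCF larvae, 48.9 and 52.2 in CTCF Su(Hw) larvae, 41.9 and 33.7 in CTCF Pita larvae and 47.8 and 76.0 in the triple mutant. Wild type and CTCF larvae stood above the other 3 genotypes without overlap, and GstE9 fell by 1.31 ± 0.22 in CTCF Su(Hw) larvae (log2, SE; adjusted p = 0.00161). GstE5 rose the most, by 3.63 ± 0.47 (adjusted p = 0.000443), and GstE3 rose by 1.17 ± 0.22 (adjusted p = 0.00296). GstT1, a theta-class gene, stood at 62.9 and 65.8 CPM in wild type, 96.4 and 73.6 in CTCF larvae, 32.8 and 32.0 in CTCF Su(Hw) larvae, 37.2 and 31.5 in CTCF Pita larvae and 44.5 and 58.9 in the triple mutant. It was lowest in the genotypes with a single further mutation, and fell by 0.99 ± 0.18 in CTCF Su(Hw) larvae (adjusted p = 0.00273). GstE13, an epsilon gene outside the cluster, stood at 35.8 and 35.7 CPM in wild type, 51.8 and 41.5 in CTCF larvae, 17.7 and 18.6 in CTCF Su(Hw) larvae, 16.9 and 15.9 in CTCF Pita larvae and 18.8 and 24.7 in the triple mutant. Its order of genotypes was that of GstE9, and it fell by 0.98 ± 0.17 (adjusted p = 0.00236).

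GstZ2 belongs to the zeta class, whose mammalian enzyme is the maleylacetoacetate isomerase of tyrosine breakdown. It stood at 49.3 and 48.4 CPM in wild type, 40.8 and 39.7 in CTCF larvae, 24.4 and 26.3 in CTCF Su(Hw) larvae, 30.9 and 32.7 in CTCF Pita larvae and 32.1 and 20.1 in the triple mutant. The 5 genotypes did not overlap except for the triple mutant, and GstZ2 fell by 0.95 ± 0.19 in CTCF Su(Hw) larvae (adjusted p = 0.00431). GstD1, at 822 and 652 CPM in wild type, 958 and 883 in CTCF larvae, 410 and 406 in CTCF Su(Hw) larvae, 335 and 278 in CTCF Pita larvae and 349 and 423 in the triple mutant, fell by 0.85 ± 0.19 (adjusted p = 0.00668). GstT2 stood at 2.12 and 2.19 CPM in wild type, 2.89 and 3.03 in CTCF larvae, 4.54 and 4.88 in CTCF Su(Hw) larvae, 2.60 and 2.80 in CTCF Pita larvae and 5.24 and 3.62 in the triple mutant. It rose by 1.12 ± 0.30 (adjusted p = 0.0148), and 223 of its 887 exon bases overlap CG12926 on the other strand, whose reads these unstranded counts cannot separate. GstD9 rose by 0.57 ± 0.18 (adjusted p = 0.0330). GstO2, an omega gene that shares 61 exon bases with se, stood at 81.5 and 89.3 CPM in wild type, 92.0 and 103 in CTCF larvae, 61.3 and 63.8 in CTCF Su(Hw) larvae, 54.3 and 44.2 in CTCF Pita larvae and 57.0 and 66.5 in the triple mutant. It fell by 0.45 ± 0.15 (adjusted p = 0.0441), and this direction turned to 0.03 with library totals.

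With both CTCF Su(Hw) libraries summed, 6 members were called, and leaving out CTCF Su(Hw) library 1, CTCF Su(Hw) library 2 or wild-type library 1 left 5, 6 and 6. GstD9, GstT2 and GstO2 were not called without either CTCF Su(Hw) library or without either wild-type library (adjusted p from 0.0543 to 0.236), GstD1 was not without either CTCF Su(Hw) library or wild-type library 1 (0.0631 to 0.0717), and GstZ2 was not without CTCF Su(Hw) library 1 (0.0542). Fewer of all genes tested were called in these settings as well. Of the most abundant members of the other classes, with all libraries, GstE12 changed by -0.45 (adjusted p = 0.104), GstO3 by -0.26 (0.230), GstS1 by 0.51 (0.0714) and GstT4 by -0.27 (0.196).

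Of the 4 genotypes compared with wild type, CTCF Pita larvae had the most members called lower. Members called numbered 18 of 31, 17 lower and GstE3 alone higher, or 58.1% against 37.8% of all genes tested (18.6% higher and 19.2% lower), and 5 lower and 2 higher with library totals. By class, 6 of 9 tested delta genes, 7 of 12 epsilon genes, 2 of 3 omega genes, 1 of 4 theta genes and 1 of 2 zeta genes fell. The members' median log2 change was -0.67, against 0.00 over all genes tested. Relative to the latter it lay between -0.92 and -0.52 under the 17 alternatives, and 23 of 31 members were below it.

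GstD2 fell the most. This delta gene stood at 6.70 and 5.64 CPM in wild type, 6.66 and 4.55 in CTCF larvae, 5.10 and 5.17 in CTCF Su(Hw) larvae, 1.12 and 0.48 in CTCF Pita larvae and 1.18 and 1.00 in the triple mutant. Both genotypes with the Pita mutation lay below the other 3, and the change in CTCF Pita larvae was -2.98 ± 0.38 (log2, SE; adjusted p = 0.000344), from 77 reads in wild type to 14. GstD7 stood at 28.1 and 27.3 CPM in wild type, 26.6 and 44.2 in CTCF larvae, 34.8 and 37.9 in CTCF Su(Hw) larvae, 6.94 and 6.75 in CTCF Pita larvae and 22.05 and 23.3 in the triple mutant. The CTCF Pita libraries alone stood far below the rest, and GstD7 fell by 2.01 ± 0.22 there (adjusted p = 0.000165). GstE9 fell by 1.73 ± 0.22 (adjusted p = 0.000317), and GstD1 fell by 1.27 ± 0.19 (adjusted p = 0.000806). GstD10, which lies at an end of the delta cluster, stood at 22.9 and 18.5 CPM in wild type, 20.5 and 31.3 in CTCF larvae, 28.2 and 22.3 in CTCF Su(Hw) larvae, 8.80 and 8.68 in CTCF Pita larvae and 11.7 and 12.1 in the triple mutant. Again the genotypes with the Pita mutation lay below the rest, and the change in CTCF Pita larvae was -1.24 ± 0.22 (adjusted p = 0.00194). GstE13 fell by 1.13 ± 0.18 (adjusted p = 0.000948). GstE3, the member called higher, rose by 0.73 ± 0.22 (adjusted p = 0.0228).

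Smaller falls, from -0.998 to -0.476 on the log2 scale, were called for GstD3, GstT1, GstE11, GstE10, GstE12, GstO2, GstD9, GstE1, GstZ2, GstE8 and GstO3. Of these GstE12, the most abundant epsilon gene per length, stood at 321 and 276 CPM in wild type, 438 and 361 in CTCF larvae, 221 and 217 in CTCF Su(Hw) larvae, 171 and 172 in CTCF Pita larvae and 242 and 351 in the triple mutant. Its triple mutant libraries spanned the wild-type values, and its change in CTCF Pita larvae was -0.80 ± 0.20 (adjusted p = 0.00998). GstO3, the leading omega gene, stood at 112 and 108 CPM in wild type, 171 and 167 in CTCF larvae, 92.5 and 90.6 in CTCF Su(Hw) larvae, 87.6 and 70.4 in CTCF Pita larvae and 72.7 and 91.0 in the triple mutant. It was highest in CTCF larvae, and it changed by -0.48 in CTCF Pita larvae (adjusted p = 0.0399). GstT4 changed by -0.37 (adjusted p = 0.0809) and GstT3, which spanned 14.4 to 21.9 CPM over all libraries, by 0.03 (0.899).

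With the glue covariate 9 members were called, all lower, beside 1170 of all genes tested, against 4001 without it. Fewer members and fewer of all genes were called without CTCF Pita library 2 or wild-type library 1. The rise of GstE3 was not called without CTCF Pita library 1 (adjusted p = 0.101), wild-type library 2 (0.207) or CTCF Su(Hw) library 1 (0.0503), and turned to -0.14 with the glue covariate, while GstD1, GstD2, GstD7, GstD10, GstE9 and GstE13 were called with any single library left out. Beside the family, 4 of 8 tubule markers and 4 of 13 midgut markers were called lower, 2 midgut markers higher, and 7 of 7 glue genes higher in this genotype. Fat body markers were 1 higher and 2 lower of 10. In CTCF Su(Hw) larvae 4 of 8 tubule markers were called lower as well, and midgut markers were 2 higher and 2 lower of 13. There, 3 of 7 glue genes and 3 of 10 fat body markers were higher. CTCF larvae had 3 midgut markers, 2 fat body markers and 1 glue gene called higher, and no tubule marker called. All genes tested were called at 37.8% in CTCF Pita, 33.3% in CTCF Su(Hw) and 3.37% in CTCF larvae.

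In the triple mutant the delta genes GstD6 and GstD8, which were not called against wild type in the other genotypes, rose, while other delta genes fell. Members called numbered 11 of 31, 4 higher and 7 lower, or 35.5% against 21.2% of all genes tested (10.9% higher and 10.3% lower), and 3 higher and 3 lower with library totals. The members' median log2 change was -0.29 against 0.00 over all genes tested, and relative to that median it ranged from -0.49 to -0.06 under the alternatives.

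GstD6 stood at 1.96 and 2.82 CPM in wild type, 1.74 and 2.53 in CTCF larvae, 6.30 and 4.41 in CTCF Su(Hw) larvae, 1.74 and 0.39 in CTCF Pita larvae and 15.4 and 22.9 in the triple mutant. The triple mutant libraries lay above all others, and GstD6 rose by 2.97 ± 0.42 against wild type (log2, SE; adjusted p = 0.000520). GstD8 stood at 3.10 and 2.35 CPM in wild type, 1.45 and 2.02 in CTCF larvae, 2.69 and 3.64 in CTCF Su(Hw) larvae, 2.11 and 5.21 in CTCF Pita larvae and 17.7 and 15.1 in the triple mutant. Its triple mutant libraries again lay above all others, with a rise of 2.59 ± 0.37 (adjusted p = 0.000557). GstD2, which lies in the same cluster, fell by 2.45 ± 0.38 (adjusted p = 0.00104). GstD3 stood at 11.1 and 8.77 CPM in wild type, 12.4 and 17.9 in CTCF larvae, 5.75 and 6.13 in CTCF Su(Hw) larvae, 6.32 and 3.76 in CTCF Pita larvae and 4.71 and 4.62 in the triple mutant. Its libraries in the 3 genotypes with a further mutation lay below those of wild type, and its change in the triple mutant was -1.09 ± 0.29 (adjusted p = 0.0202).

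Further falls in the triple mutant were those of GstE9, by 1.02 ± 0.22 (adjusted p = 0.00625), GstD1, by 0.93 ± 0.19 (0.00510), GstZ2, by 0.88 ± 0.19 (0.00795), and GstD10, by 0.80 ± 0.22 (0.0240). GstE13 was called as well, with a log2 change of -0.73 (adjusted p = 0.0126). GstT2 rose by 1.07 ± 0.31 (adjusted p = 0.0290). GstS1, whose enzyme is abundant in insect muscle and acts on products of lipid oxidation, stood at 122 and 121 CPM in wild type, 118 and 165 in CTCF larvae, 172 and 175 in CTCF Su(Hw) larvae, 170 and 178 in CTCF Pita larvae and 161 and 228 in the triple mutant. It stood above wild type in each library of the 3 genotypes with a further mutation and rose by 0.67 ± 0.20 in the triple mutant (adjusted p = 0.0350). GstT4, at 102 and 90.4 CPM in wild type, 74.9 and 68.0 in CTCF larvae, 79.2 and 80.0 in CTCF Su(Hw) larvae, 78.4 and 70.2 in CTCF Pita larvae and 120 and 96.9 in the triple mutant, changed by 0.18 (adjusted p = 0.441). GstE12 changed by -0.01 (0.981) and GstO3 by -0.43 (0.0887).

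Leaving out wild-type library 1 left 4 members called and leaving out triple mutant library 1 left 7. The calls of GstS1 and GstT2 were lost without either wild-type library, either CTCF Su(Hw) library, and triple mutant library 2 for GstS1 or 1 for GstT2 (adjusted p from 0.0665 to 0.241), those of GstD3 and GstD10 without wild-type library 1 or either triple mutant library (0.0560 to 0.162), and those of GstE9 (0.0591) and GstD1 (0.0544) without wild-type library 1. With the glue covariate 4 members were called, and GstD6 was then at 2.83 with an adjusted p of 0.0528. Over all genes tested 788 were called with this covariate, against 2248 without it. Beside these changes 7 of 13 midgut markers and 5 of 7 glue genes were called higher, and 3 of 8 tubule markers lower and 2 higher. Fat body markers were 2 higher and 3 lower of 10.

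**Figure D3:**
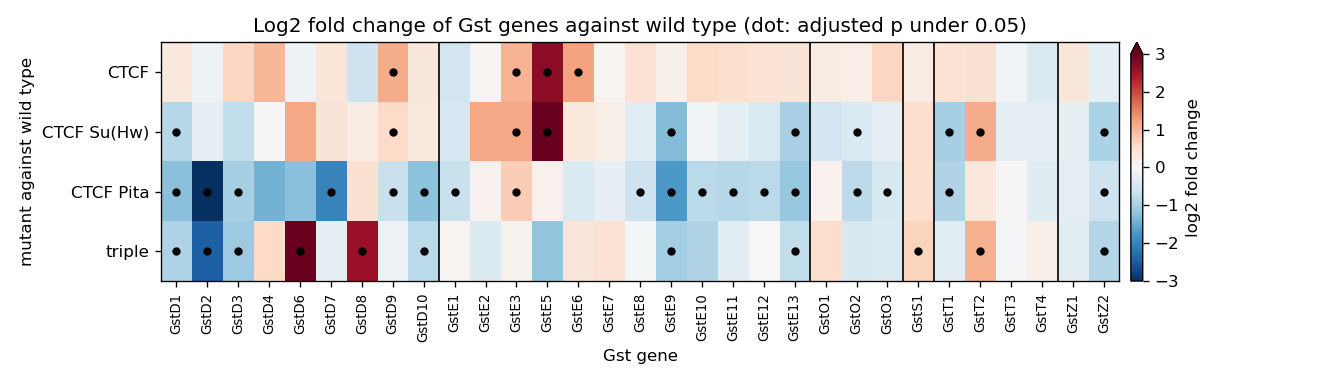
Log2 fold change of the 31 tested Gst genes in each mutant against wild type, on a colour scale from -3 to 3 with a dot at an adjusted p under 0.05, and genes ordered by class. The CTCF Pita comparison holds 17 of its 18 calls on the lower side (5 of 7 with library totals), and GstE5 in CTCF Su(Hw) larvae, at 3.63, lies beyond the scale.

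Over the 4 comparisons with wild type, which share their control libraries, 24 of 31 members were called at least once, or 77.4% against 54.2% of all genes tested. The 4 members called lower in each of the 3 genotypes with a further mutation were GstD1, GstE9, GstE13 and GstZ2, or 12.9% against 5.69% of all genes. With library totals GstE9 alone of these was called lower in each of the 3. GstD1 (adjusted p = 0.127) was then not called in CTCF Su(Hw) larvae, GstE13 not in CTCF Su(Hw) larvae (0.0656) or the triple mutant (0.0551), and GstZ2 not in CTCF Su(Hw) larvae (0.242), CTCF Pita larvae (0.745) or the triple mutant (0.137). GstD9 was the single member called higher in some genotypes, the CTCF and CTCF Su(Hw) mutants, and lower in another, CTCF Pita larvae. This was 3.23% of members against 1.79% of all genes. With library totals GstD9 was called higher in CTCF Su(Hw) larvae (1.06, adjusted p = 0.00328). It was then not called in CTCF larvae (0.54, 0.0795) or CTCF Pita larvae (-0.18, 0.517). The 7 members called in no mutant against wild type were GstD4, GstE2, GstE7, GstO1, GstT3, GstT4 and GstZ1.

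The 11 delta genes lie in a cluster of 20.8 kb on chromosome arm 3R (3R:12364776-12385624, dm6), and neighbours in it did not change alike. GstD10, GstD9 and GstD1 lie on the minus strand in this order, and GstD2, GstD3, GstD4, GstD5, GstD6, GstD7, GstD8 and GstD11 follow on the plus strand. In the triple mutant GstD2 (3R:12371971-12372704) changed by -2.45 and GstD3 by -1.09, while GstD6 (3R:12377128-12377907) changed by 2.97 and GstD8 (3R:12380008-12380815) by 2.59. GstD7 (3R:12378500-12379255), which lies between GstD6 and GstD8, changed by -0.29 (adjusted p = 0.349). GstD4 changed by 0.60 (0.414), on 15 reads in wild type and 26 in the triple mutant. The 2 genes of the cluster that are no members, CG10035 and lncRNA:CR46015, had 10 and 3 reads in all. Reads that mapped to several places were not counted, so values of the most similar delta genes are uncertain by the share of their reads that was dropped.

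**Figure D4:**
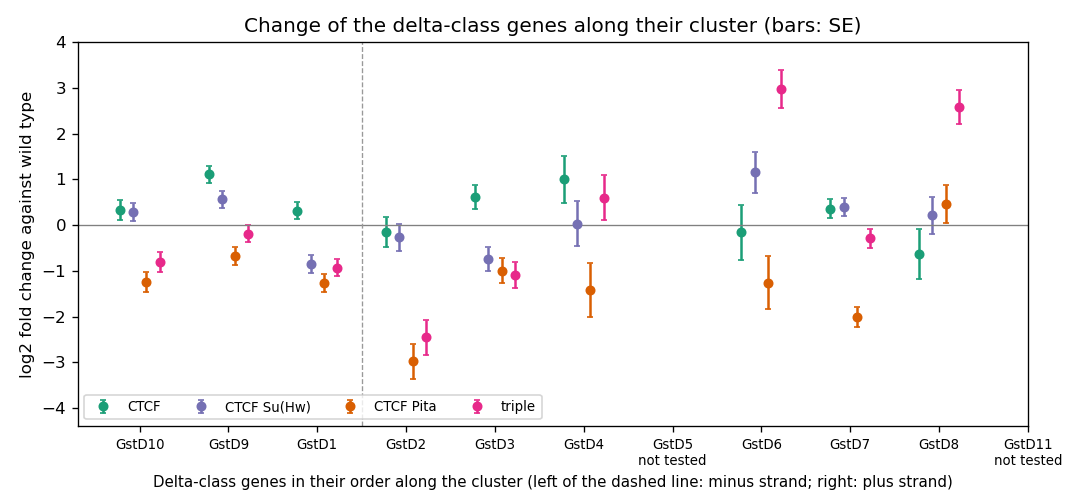
Log2 fold change of the delta-class genes against wild type in each mutant, in their order along the cluster on 3R, with bars for the standard error. GstD6 and GstD8 stood at 2.97 and 2.59 in the triple mutant, GstD7 between them at -0.29, and GstD2 at -2.98 and -2.45 in the genotypes with the Pita mutation.

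The epsilon cluster (2R:18396638-18409835, dm6) holds GstE10 on the minus strand and GstE1 to GstE9 on the plus strand within 13.2 kb. Its members were likewise not of a kind. In CTCF Su(Hw) larvae GstE5 (2R:18404605-18405338) changed by 3.63 and GstE3 by 1.17, while GstE9 (2R:18409048-18409835) at the end of the cluster changed by -1.31, and GstE7 by 0.18 (adjusted p = 0.385) and GstE8 by -0.31 (0.235) lay between. GstE9 shares 40 exon bases with imd on the other strand, a gene of the immune deficiency pathway that changed by -0.74 in CTCF Su(Hw) larvae (adjusted p = 0.00955), a call lost without either library of that genotype (0.0536 and 0.0875). The genes CR43687 and CR43688 in the cluster, which are no members, had 2 reads and 1 read. GstE11, GstE12, GstE13 and GstE14 lie elsewhere on 2R. Shorter overlaps of exons were those of GstE12 with CG3894 (33 bases), GstE1 with GstE10 (20 bases) and GstE13 with CG18659 (6 bases). The omega genes lie within 6 kb on 3L (3L:8518885-8524866) together with se, the sepia gene of eye pigment synthesis, which is an omega transferase by function but no member by symbol and had 9 reads.

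Steps between mutants compare genotypes that differ by the Su(Hw) or Pita mutation, with the CTCF mutation in both groups. CTCF level, glue level and mitochondrial share were unequal between these genotypes too, and a step cannot tell them apart from the mutation. Below, adding a mutation, and a fall or rise at such a step, describes the genotypes compared and not a tested cause. Adding the Su(Hw) mutation to CTCF larvae lowered 13 of 31 members and raised 0 by edgeR and 0 by DESeq2, or 41.9% called against 41.4% of all genes tested (20% higher and 21.4% lower), and with library totals the split was 15 higher and 0 lower, that scaling moving the median of all genes by 1.06. Library totals called 7194 of the 10585 genes tested at this step. In either direction 18 members had an unadjusted p under 0.05 with TMM factors. Relative to the median of all genes tested the members' median log2 change was negative under each of the alternatives, between -0.71 and -0.46. The share called was thus near the background, while all calls with TMM factors went in the same direction.

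The largest falls at this step were those of GstE9, by 1.46 ± 0.22 (log2, SE; adjusted p = 0.000522), GstT1, by 1.39 ± 0.18 (0.000271), and GstD3, by 1.36 ± 0.27 (0.00259). GstD1 changed by -1.17 (0.000872) and GstE13 by -1.36 (0.000247). For each of these 5 genes the mean of CTCF larvae was above that of wild type. Leaving out CTCF library 1, CTCF Su(Hw) library 1 or CTCF Su(Hw) library 2 left 8, 8 and 7 members called, and 7 were called with the CTCF Su(Hw) libraries summed. Calls over all genes tested were likewise fewer in these settings. Of the markers, 8 of 13 midgut genes were called lower and 1 higher at this step. Fat body markers were 3 higher and 2 lower of 10, tubule markers 1 lower of 8, and glue genes 2 higher of 7.

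Adding the Pita mutation to CTCF larvae lowered 19 of 31 members, or 61.3% against 44.1% of all genes tested (21.4% higher and 22.6% lower), and with library totals 9 were higher and 7 lower, that scaling moving the median of all genes by 1.06. Over all 10585 genes tested, 7324 were called with library totals. Relative to the median of all genes tested the members' median was between -1.30 and -1.04 under the alternatives, and 27 of 31 members lay below it. GstD2 changed by -2.83 ± 0.41 (log2, SE; adjusted p = 0.000446), GstE5 by -2.55 ± 0.50 (0.00237) and GstD4 by -2.42 ± 0.58 (0.00643). GstD4 stood at 1.14 and 1.25 CPM in wild type, 1.74 and 3.03 in CTCF larvae, 0.93 and 1.53 in CTCF Su(Hw) larvae, 0.62 and 0.29 in CTCF Pita larvae and 1.71 and 2.01 in the triple mutant, or 3 to 16 reads a library. Its call at this step was lost without CTCF library 2 (adjusted p = 0.0839) or CTCF Pita library 2 (0.0547). GstD7 changed by -2.38 (5.886e-05) and GstD9 by -1.79. Of 13 midgut markers 10 were called lower at this step, beside 2 higher and 5 lower of 10 fat body markers. Tubule markers were 3 lower of 8, and glue genes 3 higher of 7.

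Adding the Pita mutation to CTCF Su(Hw) larvae raised 5 members and lowered 6, or 35.5% called against 22.6% of all genes tested (12.1% higher and 10.4% lower), with a split of 2 higher and 8 lower under library totals. Library totals called 2047 of the 10585 genes tested here. The members' median relative to that of all genes tested changed sign among the alternatives, from -0.06 to 0.21, so no direction is given for the family. GstE5 went from 172 reads to 4 and fell by 4.8 ± 0.53 (log2, SE; adjusted p = 0.000194). GstD2 fell by 2.19 ± 0.37 (0.00236) and GstD10 by 1.09 ± 0.21 (0.00512). On the other side GstD8 rose by 2.38 ± 0.33 (0.000764), GstD6 by 1.82 ± 0.35 (0.00464) and GstO1 by 1.11 ± 0.29 (0.0183). GstO1, an omega gene, stood at 7.02 and 8.93 CPM in wild type, 12.7 and 6.07 in CTCF larvae, 5.47 and 5.17 in CTCF Su(Hw) larvae, 8.18 and 9.26 in CTCF Pita larvae and 9.85 and 13.7 in the triple mutant, and it was lowest in CTCF Su(Hw) larvae. With the CTCF Su(Hw) libraries summed, or without either of them, 4 members were called. GstO1 was not called without either of them or without triple mutant library 2 (adjusted p from 0.109 to 0.134), GstD6 not without CTCF Su(Hw) library 2 (0.0906) and GstD10 not without CTCF Su(Hw) library 1 (0.0664). Over all genes tested, too, fewer were called in the settings that left 4 members. At this step 7 of 13 midgut markers were called higher, while 3 of 10 fat body markers were called lower. Tubule markers were 1 higher and 1 lower of 8, and 1 of 7 glue genes was higher.

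Adding the Su(Hw) mutation to CTCF Pita larvae raised 11 of 31 members, or 35.5% against 16.8% of all genes tested (9.87% higher and 6.88% lower), with 3 higher and 1 lower under library totals. Of all 10585 genes tested, library totals called 1230. Relative to the median of all genes tested the members' median lay between 0.33 and 0.60 under the alternatives, and 23 of 31 members lay above it. GstD6 went from 18 reads to 258 and rose by 4.23 ± 0.45 (log2, SE; adjusted p = 0.000243). GstD8 rose by 2.13 ± 0.33 (0.00260) and GstD4 by 2.03 ± 0.55 (0.0296). GstD7 was called with 1.72 (0.00102), and GstE12 with 0.79 (0.0234), GstE6 with 0.79 (0.0278), GstE1 with 0.74 (0.0229), GstE9 with 0.70 (0.0487), GstE7 with 0.69 (0.0155), GstT1 with 0.58 (0.0493) and GstT4 with 0.55 (0.0351). Leaving out CTCF Pita library 2 left 3 members called, leaving out CTCF Pita library 1, triple mutant library 2 or either CTCF Su(Hw) library left 5, and 5 were called with the CTCF Su(Hw) libraries summed. The call of GstD4 was lost without either CTCF Pita, CTCF Su(Hw) or triple mutant library, its change then lying between 1.55 and 2.60. The settings that left 3 or 5 members also called fewer of all genes tested. Of the markers, 6 of 13 midgut genes were called higher. Beside them, 1 of 10 fat body markers was higher and 2 lower, 2 of 8 tubule markers higher and 2 of 7 glue genes lower.

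Whether the step adding the Su(Hw) mutation differed with and without the Pita mutation was tested by the interaction term. This term is the triple mutant minus CTCF Pita larvae, less CTCF Su(Hw) larvae minus CTCF larvae, on the log2 scale. Members called numbered 18 of 31, 17 higher and 1 lower, or 58.1% against 45.3% of all genes tested (23.2% higher and 22.1% lower), and with library totals, which moved the median of all genes by -1.40, the split was 1 higher and 8 lower. Over all 10585 genes tested, 6801 were called with library totals. Relative to the median of all genes tested, the members' median was positive under each alternative, from 0.92 to 1.26. It was 1.08 with the CTCF Su(Hw) libraries summed. By class 6 of 9 delta, 7 of 12 epsilon, 3 of 3 omega and 1 of 4 theta genes were called higher, and GstE5 lower.

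The 5 members with the smallest adjusted p were GstT1 at 1.97 ± 0.26 (SE; adjusted p = 0.000406), GstE9 at 2.16 ± 0.31 (0.000510), GstE13 at 1.76 ± 0.25 (0.000514), GstE12 at 1.66 ± 0.28 (0.00112) and GstE6 at 1.69 ± 0.29 (0.00116). Of these GstT1, GstE9, GstE12 and GstE6 fell when the Su(Hw) mutation was added to CTCF larvae and rose when it was added to CTCF Pita larvae. GstE13 fell at the former step and changed by 0.40 at the latter (adjusted p = 0.144). With any single library left out these 5 were still called, while with library totals GstE9 was at 0.71 (adjusted p = 0.0422) and the terms of GstT1 (0.52, adjusted p = 0.108), GstE13 (0.31, 0.331), GstE12 (0.19, 0.502) and GstE6 (0.25, 0.468) were not. The largest terms were those of GstD4 at 2.99 (adjusted p = 0.00728) and GstD6 at 2.92 (0.0105), and GstE5 went the other way at -2.25 (0.0477). Of 13 midgut markers 9 were called in the interaction, each higher. The other lists differed from this, with 2 higher and 3 lower of 10 fat body markers, 2 higher of 8 tubule markers and 2 lower of 7 glue genes.

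**Figure D5:**
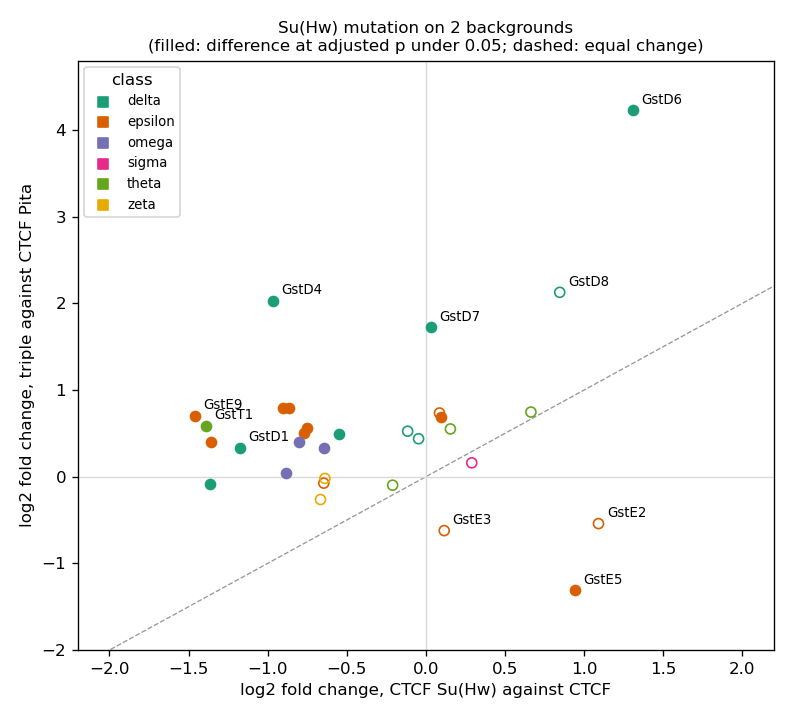
Log2 fold change of each tested Gst gene when the Su(Hw) mutation was added to CTCF larvae (horizontal axis) and to CTCF Pita larvae (vertical axis), coloured by class and filled where the difference between both had an adjusted p under 0.05. Most members lie above the dashed line of equal change, 17 of them called, a split that was 1 higher and 8 lower with library totals, and GstD6 lies highest at 4.23. Of all genes tested 45.3% were called, and 6801 of 10585 with library totals.

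Glutathione is made by glutamate-cysteine ligase, and neither subunit gene, Gclc or Gclm, was called against wild type. The log2 change of the catalytic subunit gene Gclc was 1.03 (adjusted p = 0.0530) in CTCF larvae, 0.54 (0.117) in CTCF Su(Hw) larvae, 0.55 (0.105) in CTCF Pita larvae and 0.68 (0.0769) in the triple mutant. Gclc was called in CTCF larvae without either CTCF Pita or either triple mutant library (0.0302 to 0.0431), and in the triple mutant without triple mutant library 2 (0.0419). Of the 6 tested genes of glutathione synthesis and breakdown 1, CG17636, was called higher in each of the 3 genotypes with a further mutation, by 2.56 to 2.82. It stood at 5.72 and 7.99 CPM in wild type, 3.18 and 2.27 in CTCF larvae, 39.6 and 41.4 in CTCF Su(Hw) larvae, 73.4 and 14.7 in CTCF Pita larvae and 50.3 and 46.4 in the triple mutant. Its change in CTCF Pita larvae was 1.08 without CTCF Pita library 1 and 3.404 without library 2, and without wild-type library 1 it was called in none of the 3 genotypes (adjusted p from 0.0548 to 0.0709). Of 14 tested genes of glutathione and thioredoxin redox, 1 was called higher in CTCF larvae, 2 higher and 5 lower in CTCF Su(Hw) larvae, 2 higher and 8 lower in CTCF Pita larvae, and 1 higher and 3 lower in the triple mutant. Over all genes tested 3.37%, 33.3%, 37.8% and 21.2% were called in these 4 comparisons. Among those lower in CTCF Pita larvae were the peroxiredoxin Prx3 at -1.16 (adjusted p = 0.000203), the thioredoxin Trx2 at -1.15 (0.00122), catalase (Cat) at -1.08 (0.00122) and the superoxide dismutase Sod1 at -1.08 (0.00257). The list's median change there was -0.78, beside -0.67 for the family and 0.00 over all genes tested. Of 3 other transferase and export genes tested, gfzf, a zinc-finger protein with a transferase domain, was called lower in the 3 genotypes with a further mutation (-0.44, -0.63 and -0.77), and the exporter MRP higher in CTCF Su(Hw) larvae (0.59, adjusted p = 0.0270). In CTCF Su(Hw) larvae the calls of gfzf and MRP were lost without either wild-type or either CTCF Su(Hw) library (adjusted p from 0.0611 to 0.194), and that of gfzf in CTCF Pita larvae without CTCF Pita library 2 (0.0526).

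Of the 6 regulators, cnc, which encodes CncC, was called higher in CTCF Su(Hw) larvae (log2 0.72, adjusted p = 0.00427), CTCF Pita larvae (0.58, 0.0105) and the triple mutant (0.55, 0.0201) and changed by 0.02 (0.966) in CTCF larvae. Its inhibitor Keap1 was not called against wild type (-0.80, 0.37, 0.00 and 0.38 in the CTCF, CTCF Su(Hw), CTCF Pita and triple mutants; adjusted p from 0.208 to 0.996). The CncC partner maf-S was called lower in CTCF Su(Hw) larvae (-0.87, adjusted p = 0.00307). The gene ss, which encodes the fly counterpart of the aryl hydrocarbon receptor, was called higher in CTCF larvae (3.39, 0.000166) and CTCF Pita larvae (0.99, 0.0298). Its partner tgo and the xenobiotic receptor Hr96 were not called against wild type, with changes from -0.40 to 0.44. In the genotypes where cnc was higher, GstD1, a known CncC target, was lower. Counts of the whole cnc gene do not measure CncC protein or its activity, and a link between both genes was not tested. The call of cnc was lost in CTCF Su(Hw) larvae without CTCF Su(Hw) library 2 (adjusted p = 0.0519), in CTCF Pita larvae without either wild-type library or CTCF Pita library 2 (0.0615 to 0.0731), and in the triple mutant without either wild-type or either CTCF Su(Hw) library (0.0540 to 0.116). That of ss in CTCF Pita larvae was lost without either wild-type library or CTCF Pita library 2 (0.0984 to 0.146).

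Cytochrome P450 and epoxide hydrolase genes, which act beside Gst enzymes on foreign compounds, were called higher for 4 of 7 tested in CTCF larvae, 3 higher and 1 lower in CTCF Su(Hw) larvae, 1 higher and 5 lower in CTCF Pita larvae and were not called in the triple mutant, where the smallest adjusted p was that of Cyp6a2. The shares called over all genes tested were again 3.37%, 33.3%, 37.8% and 21.2%. Cyp6a2 stood at 11.3 and 2.51 CPM in wild type, 33.6 and 31.3 in CTCF larvae, 91.2 and 93.8 in CTCF Su(Hw) larvae, 0.99 and 1.06 in CTCF Pita larvae and 2.78 and 1.00 in the triple mutant, so its folds depend on which wild-type library is used. Cyp6a2, a P450 linked to insecticide resistance, changed by 2.24 (adjusted p = 0.0216), 3.75 (0.000199), -2.71 (0.00675) and -1.69 (0.0579) in the CTCF, CTCF Su(Hw), CTCF Pita and triple mutants. Without wild-type library 1 the first 3 were 3.69, 5.19 and -1.29, the last of these not called (adjusted p = 0.0973). Without wild-type library 2 the 4 were 1.52 (0.0568), 3.00 (0.000395), -3.46 (0.000461) and -2.44 (0.00213). The call in CTCF larvae was also lost without either CTCF or either CTCF Su(Hw) library (0.0623 to 0.163). Cyp6g1, the P450 of DDT resistance, changed by 3.16 (6.05e-06), 0.27 (0.253), 1.35 (0.000344) and -0.01 (0.975).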

How the data were processed

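RNA-seq libraries of whole larvae were deposited by the authors as gene tables of raw counts, laid out as STAR writes them with 3 count columns. The unstranded column was used, since 50.1% to 50.3% of stranded reads fell on the first strand. Per the submitters' processing notes, cutadapt, STAR and the dm6 build were used; no versions or settings were stated there. Rows that name no gene held 60.2% to 74.4% of reads, of which multi-mapping reads were 50.9% to 65.5% and ambiguous reads 3.68% to 4.43% of the total, and stayed out of library sizes and tests. Near-identical or overlapping genes are uncertain for this reason. Symbols and positions came from the Ensembl annotation of the fly, whose symbols matched 17597 of 17735 identifiers.

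Counts were filtered with filterByExpr, scaled with TMM and fitted with 1 coefficient per genotype over all 10 libraries in edgeR 4.0.16 (R 4.3.3), with 5 residual degrees of freedom, a common biological coefficient of variation of 15.9% and a median prior of 6.22 degrees of freedom. The quasi-likelihood test was run for 9 comparisons, with Benjamini-Hochberg adjustment over 10585 genes within each and a threshold of 0.05. The script was tested on simulated data. Fold changes are log2. The SE printed with them, also drawn as bars, was derived as the absolute log2 fold change divided by the square root of the test's F value.

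The members and gene lists (glutathione synthesis, redox, other transferases and export, regulators, P450 and other detoxification genes, midgut, fat body, tubule and glue markers) were chosen with earlier results of these data known. Given in full were called members by absolute fold change, up to 6 in each direction against wild type and up to 3 between mutants, up to 5 in the interaction by adjusted p, and the most abundant member of each class. Alternatives were RLE factors, library totals, no filter, DESeq2 1.42.0, the replicate block, the mean glue level as a covariate, the CTCF Su(Hw) libraries summed, and each library left out. The last was extended, after the data were seen, to the list genes named.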

Additional observations from a re-analysis of the deposited data

Results flagged for a closer look

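For 18 members the step adding the Su(Hw) mutation differed with and without the Pita mutation, by the interaction term of edgeR's quasi-likelihood test with Benjamini-Hochberg adjustment. Each value is a difference of log2 fold changes. With library totals the split of members called was 1 higher and 8 lower, beside 6801 of all 10585 genes called, and the cause of this was not tested.

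Among delta genes the term was 2.99 for GstD4, 2.92 for GstD6, 1.69 for GstD7, 1.51 for GstD1, 1.27 for GstD3 and 1.04 for GstD9. Among epsilon genes it was 2.16 for GstE9, 1.76 for GstE13, 1.69 for GstE6, 1.66 for GstE12, 1.31 for GstE8, 1.27 for GstE11 and 0.59 for GstE7. GstE5 had a term of -2.25. Among omega genes it was 1.20 for GstO1, 0.97 for GstO2 and 0.93 for GstO3, and the theta gene GstT1 had 1.97. The term of GstD4 rests on 3 to 16 reads a library.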

How the results depend on the processing

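With 2 libraries a genotype and 5 residual degrees of freedom, members of few reads (GstD2, GstD4, GstD6, GstD8, GstE2, GstE5 and GstT2) have wide errors, and 4 members could not be tested. With library totals the members called numbered 7 for CTCF Pita larvae against wild type, 6 for the triple mutant against wild type, 4 for the triple against CTCF Pita larvae and 9 for the interaction, and GstO2 in CTCF Su(Hw) larvae turned to 0.033. With the glue covariate they numbered 0, 6, 9 and 4 against wild type in CTCF, CTCF Su(Hw), CTCF Pita and triple mutant larvae, and GstE3 in CTCF Pita larvae turned to -0.14. With the CTCF Su(Hw) libraries summed they numbered 2 and 6 for the CTCF and CTCF Su(Hw) mutants against wild type, 7 for the CTCF Su(Hw) against CTCF larvae, 4 for the triple against CTCF Su(Hw) larvae and 5 for the triple against CTCF Pita larvae. DESeq2 called 7 for the triple against CTCF Pita larvae. All genes called numbered 3979, 1615, 1230 and 6801 of 10585 in the comparisons given for library totals. With the glue covariate, all genes called against wild type numbered 55, 2135, 1170 and 788, in the order given for it. The cause was not tested.

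With each library left out in turn, the counts against wild type ranged from 0 to 5 for the CTCF, 5 to 13 for the CTCF Su(Hw), 10 to 20 for the CTCF Pita and 4 to 12 for the triple mutant. They ranged from 7 to 16 for the CTCF Su(Hw) against CTCF larvae, 16 to 20 for the CTCF Pita against CTCF larvae, 4 to 11 for the triple against CTCF Su(Hw) larvae, 3 to 14 for the triple against CTCF Pita larvae and 13 to 19 for the interaction. Calls over all genes tested also moved with the library left out, so these ranges do not single out the family. Of 51 named fold changes, 28 kept their call with library totals, 33 with the glue covariate, 40 with the summed libraries and 50 each with RLE factors, with no filter and with the block, and DESeq2 kept 45 of 50.

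The labels do not say whether equally numbered libraries were prepared together. Their deviations correlated at -0.149 to 0.153, so no strong shared shift was seen, which does not exclude a pairing. The libraries were not treated as pairs in the main test. With the replicate block the members called numbered 4, 9, 17 and 12 against wild type (CTCF, CTCF Su(Hw), CTCF Pita and triple), 13 and 18 against CTCF larvae (CTCF Su(Hw) and CTCF Pita), 11 and 9 for the triple against the CTCF Su(Hw) and CTCF Pita mutants, and 16 for the interaction.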
